A study of Mus musculus with 36 samples.

Results

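The interleukin-6 (IL-6) family was followed through 10 genes in mouse lung pericyte-like cells: the ligands Il6, Il11 and Lif, the receptor genes Il6st, Osmr, Lifr, Il6ra and Il11ra1, the transcription factor Stat3 and the feedback inhibitor Socs3. They were picked by symbol from the 48795 genes of the count table, and all 10 passed the filter on low counts, which left 15901 genes for testing. The cells were stromal cells of mouse lung digests, freed of cells bearing CD31, CD45 or CD326, selected for PDGFRβ and kept in culture. They spent 6 or 24 h in media only (reduced-serum medium with an equal part of sterile buffered saline), or in the same medium with an equal part of bronchoalveolar lavage fluid (BALF) from uninjured or injured lungs. Each of the 6 groups of treatment and time held 3 female and 3 male libraries (n = 6), which made 36 libraries of 17134840 to 35991683 counts. The labels give no strain, age or kind of injury, and do not say that replicates were separate mice or cultures, so p-values measure the spread between these libraries, which may be technical.

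IL-6 family cytokines share a signalling chain, gp130, made by Il6st. Each ligand first meets its own receptor: IL-6 binds the product of Il6ra, IL-11 that of Il11ra1, and LIF and oncostatin M pair gp130 with the products of Lifr and Osmr. The assembled receptor activates JAK kinases and STAT3, which turns on Socs3, whose product binds gp130 and shuts the signal off. Stromal cells of the lung are known both to make these cytokines and to answer them.

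A few facts of the libraries bear on all values. Levels are given as CPM, counts scaled to library size with TMM factors, and in bulk libraries fewer cells of a type and less RNA per cell cannot be told apart. Pdgfrb, the selection marker, lay at 256 to 862 CPM. Of the other pericyte markers, Mcam lay at 30.9 to 293 CPM, Cspg4 at 14.2 to 270, Des at 7.97 to 165, Notch3 at 8.91 to 86.2 and Rgs5 at 2.29 to 24.4. The pericyte channel genes Kcnj8 and Abcc9 did not exceed 0.480 and 0.642 CPM. Of the fibroblast markers, the collagen genes Col1a1 and Col1a2 reached 5302 to 12697 and 4171 to 10623 CPM. Pdgfra lay at 36.8 to 319 CPM, Dcn at 26.4 to 191, Tcf21 at 1.78 to 19.4 and Lum at 0.674 to 8.84. In 10 of 12 groups of treatment, sex and time the libraries numbered 1 and 2 were closest to each other. Their biological variation (BCV) was 6.3 to 12.8%, against medians of 24.5% between numbers 1 and 3 and 24.0% between 2 and 3. In the other 2 groups, female uninjured BALF and female media at 24 h, numbers 2 and 3 were closest. What the numbers share is not stated, so the calls below were also made with that pair summed into 1 library. 4 libraries, none of injured BALF, carry description numbers unlike the rest. At 6 h this was male media replicate 3. At 24 h these were female media replicate 2, male media replicate 3 and male uninjured BALF replicate 3. The 4 had 13.3 to 14.8 CPM of summed macrophage markers, against 33.1 to 82.6 in the other 32. Their summed endothelial markers were 6.57 to 12.7 CPM, against 22.3 to 168.

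The upstream sequences of the 3 ligand genes and of Socs3 are shown because these were the members that rose in uninjured BALF against media at 6 h. RefSeq (GRCm38.p6) gave start sites for all 10 members, in 13 windows of 250 bases upstream. The stretches below run 5′ to 3′ on the gene's strand: Il6 at chr5:30012864-30013113 (+), Il11 at chr7:4778142-4778391 (−, before the second of its RefSeq starts), Lif at chr11:4257318-4257556 (+) and Socs3 at chr11:117969452-117969616 (−). None of the letters shown lies in an annotated exon, and the Lif and Socs3 stretches end where an exon annotated by GENCODE begins. Capitals mark matches to an NF-kB site, AP-1 (TGANTCA) or a STAT palindrome (TTCNNNGAA).
Il6: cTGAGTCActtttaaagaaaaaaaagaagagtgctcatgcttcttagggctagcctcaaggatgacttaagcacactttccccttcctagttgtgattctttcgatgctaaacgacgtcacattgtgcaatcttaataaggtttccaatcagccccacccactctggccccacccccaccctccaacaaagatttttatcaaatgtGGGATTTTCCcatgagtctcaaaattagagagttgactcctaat
Il11: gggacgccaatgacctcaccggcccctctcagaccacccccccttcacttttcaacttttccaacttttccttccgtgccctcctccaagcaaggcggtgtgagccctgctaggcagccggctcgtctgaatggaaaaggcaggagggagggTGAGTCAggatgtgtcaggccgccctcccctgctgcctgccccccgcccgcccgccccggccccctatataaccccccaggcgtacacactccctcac
Lif: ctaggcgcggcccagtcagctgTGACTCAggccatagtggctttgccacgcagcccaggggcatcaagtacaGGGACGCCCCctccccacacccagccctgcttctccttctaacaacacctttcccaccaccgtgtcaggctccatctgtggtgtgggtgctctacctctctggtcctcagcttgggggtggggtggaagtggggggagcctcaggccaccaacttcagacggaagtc
Socs3: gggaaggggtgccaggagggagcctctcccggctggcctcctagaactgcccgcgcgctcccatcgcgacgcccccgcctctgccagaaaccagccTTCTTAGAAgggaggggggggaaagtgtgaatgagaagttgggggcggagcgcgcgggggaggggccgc

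In Il6, the capitals are TGAGTCA, an AP-1 match that starts 249 bases before the RefSeq start, and GGGATTTTCC, an NF-kB match that starts 44 bases before it. Lif held an AP-1 match, TGACTCA, at 228 bases and an NF-kB match, GGGACGCCCC, at 178 bases upstream. The Il11 window held AP-1 (TGAGTCA, 98 bases upstream) and no NF-kB match, and the window before its first start held neither. Socs3 was the one member with a STAT palindrome, TTCTTAGAA, 154 bases upstream. Among 32851 RefSeq windows of the same length, 7.3% held the NF-kB motif, 6.7% AP-1 and 7.0% the STAT palindrome. The letters TTGCNNCAA, searched as a C/EBP motif, stood in 1.7% of them and in no member window. Sites of C/EBP with other letters or spacing were not searched, so their presence or absence is not known from this. The search covered both strands, and a match is a description of letters only, as is its absence.

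The comparison of uninjured BALF with media only addresses the effect of lavage fluid as such. At 6 h the 3 ligands and Socs3 rose, and no receptor gene passed, although Il6st and Osmr had an unadjusted p of 0.035 and 0.023 (edgeR adjusted p = 0.13 and 0.094). That made 4 of 10 members up and 0 down, while 18.4% of all tested genes changed in this comparison, 10.5% up and 7.81% down. For 3 members (Il11, Lif and Socs3) all uninjured BALF libraries were above all media libraries, as for 7.18% of all genes, and for 0 they were all below, as for 3.87%. Il11, whose product is known for its part in tissue fibrosis, lay at 3.08 CPM in the lowest media library, 5.79 at the median and 10.7 in the highest, and at 38.7, 80.2 and 126 in uninjured BALF. All 6 uninjured BALF libraries stood above all 6 media libraries, a rise of 3.74 ± 0.41 on the log2 scale (± standard error; edgeR adjusted p = 4.8e-07) or 13.3-fold, the largest of any member in this comparison.

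**Figure D1:**
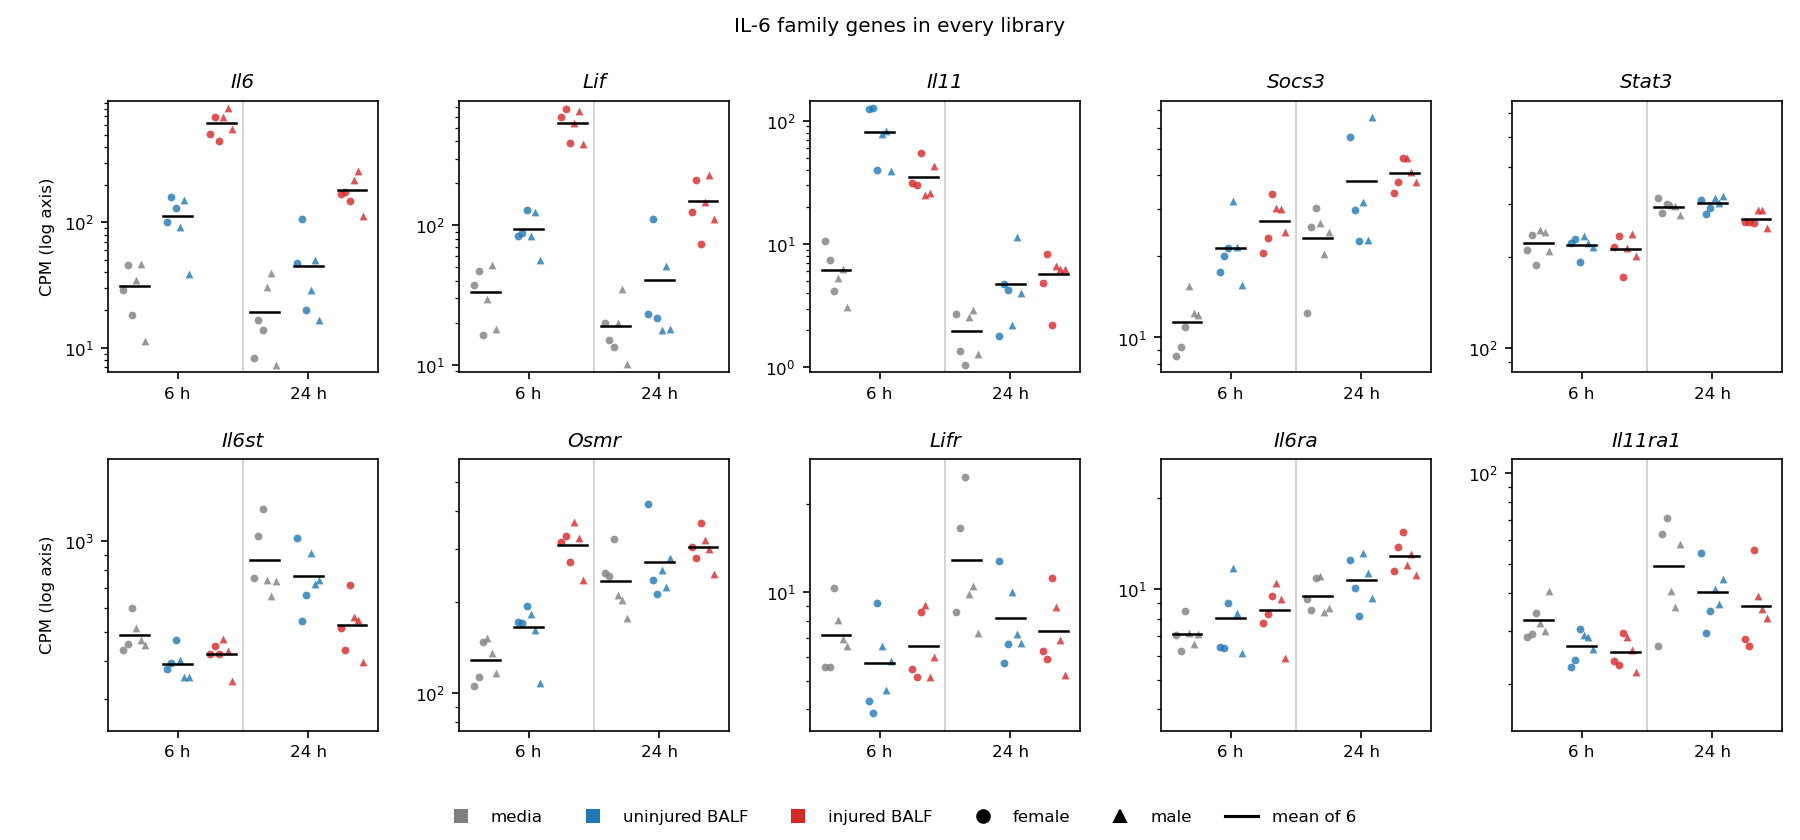
Level of each of the 10 genes in every library, in CPM on a log axis. Colours mark treatment, circles female and triangles male libraries, and bars the mean of 6. Il6 and Lif in injured BALF at 6 h sit above all libraries of every other group, Il11 is high in both lavage fluids at 6 h and at or below 11.5 CPM at 24 h, and Stat3 stays between 172 and 320 CPM.

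Il6 moved less than Il11 in that comparison. It ran from 11.2 through a median of 32.1 to 46.6 CPM in media and from 39.1 through 116 to 160.0 in uninjured BALF, with male replicate 3 (39.1) the one uninjured BALF library inside the media range. The rise was 1.84 ± 0.41 (edgeR adjusted p = 0.0024), and without the libraries numbered 1 the adjusted p was 0.089. Lif went from 16.3, 33.8 and 52.4 CPM (lowest, median, highest) to 56.6, 86.5 and 129, with no overlap and a rise of 1.49 ± 0.41 (edgeR adjusted p = 0.010). Its call ended without the libraries numbered 1 (adjusted p = 0.13) or 3 (0.060) and when the closest libraries were summed (0.052). Il11 kept its call under all 27 alternatives. Among the cell markers in this comparison, Pdgfrb fell by 0.58 ± 0.16 on the log2 scale (edgeR adjusted p = 0.013). The macrophage receptor gene Csf1r rose by 0.76 ± 0.20 (edgeR adjusted p = 0.0087). Other pericyte and macrophage markers went both ways and did not pass. The endothelial receptor gene Kdr fell by 0.98 ± 0.33 (edgeR adjusted p = 0.035). The other endothelial markers, Pecam1, Cdh5, Tek and Emcn, went the other way (0.92, 1.19, 0.22 and 1.14) and did not pass. The part of these markers in the ligands' rise was not tested.

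By 24 h, 0 of the 10 members differed between uninjured BALF and media (edgeR; 0.868% of all genes did, 0.516% up and 0.352% down), 5 at an unadjusted p under 0.05, and DESeq2 called 0 too. Il11 was at 1.05 to 2.90 CPM in media and 1.80 to 11.5 in uninjured BALF, Il6 at 7.33 to 39.3 and 16.7 to 106, and Lif at 10.2 to 35.0 and 17.8 to 112, so the groups overlapped for each ligand. The differences were 1.24 ± 0.43, 1.23 ± 0.41 and 1.06 ± 0.41 on the log2 scale (edgeR adjusted p = 0.21, 0.20 and 0.28). Il11's effect of uninjured BALF was smaller at 24 h than at 6 h by 2.50 ± 0.57 in log2 units (interaction term, edgeR adjusted p = 0.020), a term that 1.98% of all genes passed, 1.28% downward and 0.704% upward. This interaction did not pass with libraries 1 and 2 summed (adjusted p = 0.19), without the 4 libraries of unlike description number (0.082), or without those numbered 1 (0.47) or 2 (0.13). The same term was -0.61 ± 0.57 for Il6 and -0.44 ± 0.57 for Lif (edgeR adjusted p = 0.69 and 0.80).

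The comparison of injured with uninjured BALF addresses what fluid of an injured lung adds to lavage fluid as such. At 6 h Il6, Lif and Osmr rose and no member fell, 3 of 10 against 3.40% of all genes (1.96% up, 1.45% down). Their libraries did not overlap, which held for 1.97% of all genes in the upward direction. Il6 reached 447 CPM in the lowest injured BALF library, 623 at the median and 811 in the highest, so the lowest was above the 160.0 of the highest uninjured one. The rise was 2.47 ± 0.42 (edgeR adjusted p = 4.4e-04), or 5.55-fold. Lif reached 380.3, 570.0 and 678 CPM, a rise of 2.52 ± 0.42 (edgeR adjusted p = 3.1e-04), or 5.73-fold.

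With libraries 1 and 2 summed, Lif kept its call (adjusted p = 0.027) and Il6 did not (0.061). Without all libraries numbered 1, neither passed (0.13 for Lif, 0.18 for Il6). The rises were 2.07 in female and 2.87 in male libraries for Il6, and 2.46 and 2.58 for Lif. Summed neutrophil markers (6 genes, of which Ly6g was at 0 in 35 libraries, Elane in 29, S100a9 in 25 and Csf3r in 24) were 0.275 to 1.56 CPM in uninjured and 0.557 to 2.93 in injured BALF at 6 h, and summed macrophage markers 52.3 to 75.8 and 52.7 to 76.1. Of single markers, Csf1r fell by 0.73 ± 0.20 on the log2 scale, and Scgb1a1, an airway secretory cell gene of at most 0.834 CPM in any library, rose by 3.10 ± 0.80 without overlap (edgeR adjusted p = 0.043 and 0.032). The part of other cells in the ligands' rise was not tested.

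At 24 h Il6 and Lif were still higher in injured BALF and Il6st was lower, 3 of 10 members against 4.43% of all genes (2.39% up and 2.04% down). Il6 lay at 16.7, 38.2 and 106 CPM (lowest, median, highest) in uninjured and at 112, 171 and 259 in injured BALF, without overlap, and 1.06% of all genes stood apart in that way. The difference was 2.06 ± 0.42 (edgeR adjusted p = 0.0031). Lif lay at 17.8, 22.5 and 112 CPM in uninjured and 73.2, 136 and 231 in injured BALF, a difference of 1.94 ± 0.41 (edgeR adjusted p = 0.0048). Female uninjured BALF replicate 2, the highest of its group for both, overlapped the injured range for Lif only.

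These 24 h calls were less firm than those at 6 h. Summing libraries 1 and 2 ended the Il6 call (adjusted p = 0.077) and summing the closest pairs ended both (0.093 for Il6, 0.078 for Lif), as did leaving out number 1 (0.22 and 0.24). Summed neutrophil markers were 0.0452 to 2.74 CPM in uninjured and 1.90 to 5.75 in injured BALF at 24 h, and summed pericyte markers 662 to 1080 and 540 to 803. Of single markers, the pericyte gene Mcam fell by 1.19 ± 0.32 on the log2 scale and the neutrophil gene Camp rose by 2.71 ± 0.69 (edgeR adjusted p = 0.032 and 0.019). The fibroblast gene Dcn rose by 1.37 ± 0.26 (edgeR adjusted p = 0.0015). Of the other fibroblast markers, Lum differed by 0.56, Pdgfra by -0.03, Col1a1 by -0.34, Col1a2 by -0.35 and Tcf21 by -0.55, and none passed. Summed fibroblast markers were 12414 to 22551 CPM in uninjured and 9668 to 17013 in injured BALF. The part of these markers in the difference was not tested. The effect of injured against uninjured BALF passed a test of change between the times for none of the 10 members (0 called by edgeR against 0.233% of all genes, 0.145% up and 0.0880% down, 3 at an unadjusted p under 0.05, and 0 by DESeq2), with -0.41 ± 0.57 for Il6 and -0.58 ± 0.56 for Lif.

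**Figure D2:**
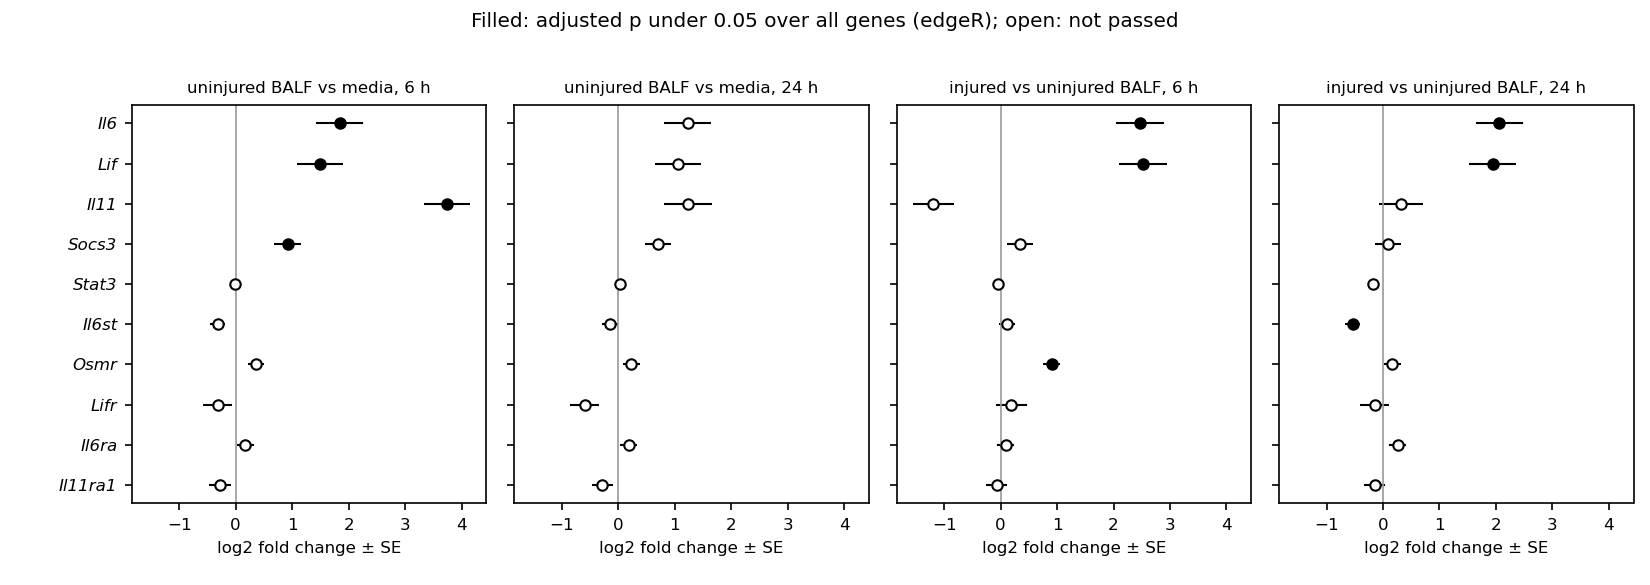
Log2 fold change ± standard error of the 10 genes in 4 comparisons, each from 6 against 6 libraries. Filled points passed an adjusted p of 0.05 over all genes (edgeR). Il11 leads the first panel at 3.74, while Il6 and Lif are near 2.5 and Il11 is at -1.19, open, in the third.

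Il11 did not follow Il6 and Lif into injured BALF. At 6 h it lay at 24.9, 30.7 and 55.2 CPM (lowest, median, highest) in injured against 38.7, 80.2 and 126 in uninjured BALF, a difference of -1.19 ± 0.36 that did not pass (edgeR adjusted p = 0.073). Libraries of the same number went separate ways. Female replicate 1 had 123 CPM in uninjured and 31.1 in injured BALF, and female replicate 2 had 126 and 30.2. Male replicate 1 had 77.3 and 24.9, and male replicate 2 had 83.1 and 26.1, while female replicate 3 had 39.5 and 55.2 and male replicate 3 had 38.7 and 43.1. Il11 was thus lower in injured BALF in the 4 pairs numbered 1 or 2 and higher in the 2 pairs numbered 3. The difference became -1.84 (edgeR adjusted p = 0.0029) without the libraries numbered 3, the adjusted p was 0.027 without female uninjured BALF replicate 3 alone, and it was 0.60 with numbers 1 and 2 summed. At 24 h, Il11 was at 1.80 to 11.5 CPM in uninjured and 2.22 to 8.33 in injured BALF, a difference of 0.32 ± 0.39 (edgeR adjusted p = 0.76).

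**Figure D3:**
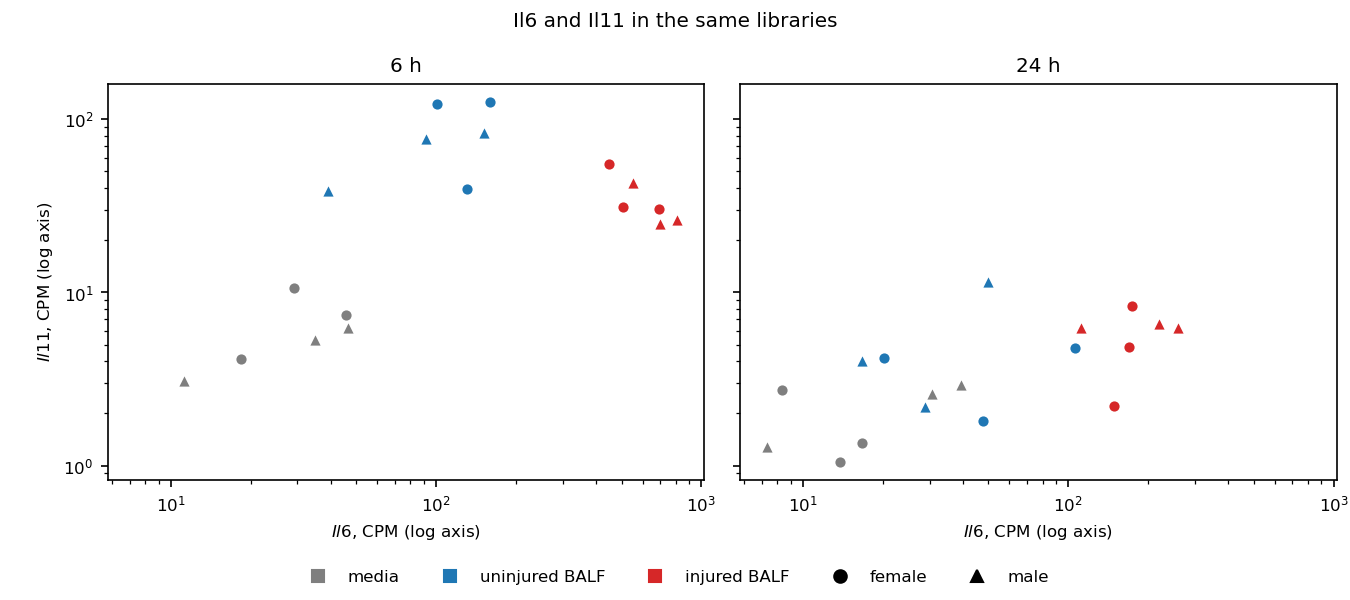
Il11 against Il6 in the same library, in CPM on log axes, at 6 h (left) and 24 h (right), with colours for treatment, circles for female and triangles for male. At 6 h the uninjured BALF libraries hold the highest Il11 (up to 126 CPM) and the injured BALF libraries the highest Il6 (447 to 811 CPM).

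Among the 5 receptor genes, Osmr alone rose in injured against uninjured BALF. Osmr, whose product carries the oncostatin M signal, was at 108, 171 and 194 CPM (lowest, median, highest) in uninjured and 237, 321 and 367 in injured BALF at 6 h, without overlap, a rise of 0.91 ± 0.15 (edgeR adjusted p = 2.5e-04) or 1.88-fold. The call ended with libraries 1 and 2 summed (adjusted p = 0.056) and without those numbered 2 (0.15). At 24 h Osmr stood at 213 to 422 CPM in uninjured and 247 to 366 in injured BALF and did not pass (0.16 ± 0.15, edgeR adjusted p = 0.66). The change of that effect from 6 to 24 h, -0.75 ± 0.21, did not pass either (edgeR adjusted p = 0.16).

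Il6st, the gene of gp130, passed in the other direction, and at 24 h only. In injured BALF at 24 h it lay at 397, 530.5 and 715 CPM (lowest, median, highest), against 544, 732 and 1025 in uninjured BALF, with overlap. The fall of 0.54 ± 0.14 on the log2 scale passed (edgeR adjusted p = 0.026) but not with libraries 1 and 2 summed (0.16), nor without any 1 of 5 libraries, female injured BALF replicates 1 and 2, male injured BALF replicate 3 and both replicates 1 of uninjured BALF (at most 0.12), nor when only these groups were fitted or the 4 libraries of unlike description number were left out (0.055). At 6 h Il6st differed by 0.11 ± 0.14 (edgeR adjusted p = 0.84). From 6 to 24 h the effect changed by -0.65 ± 0.20, which did not pass (edgeR adjusted p = 0.25).

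Il6ra, Lifr and Il11ra1, which give the ligands their specificity, passed in neither injured against uninjured comparison. Il6ra was at 6.15 to 11.7 CPM in uninjured and 5.90 to 10.5 in injured BALF at 6 h, and at 8.14 to 13.2 and 11.1 to 15.5 at 24 h. Lifr was at 3.89 to 9.22 and 5.15 to 9.04 CPM at 6 h, and at 5.75 to 12.8 and 5.22 to 11.2 at 24 h. Il11ra1 was at 22.8 to 30.5 and 21.9 to 29.5 CPM at 6 h, and at 29.5 to 54.5 and 26.7 to 55.4 at 24 h. All these ranges overlapped, and the 6 differences lay between -0.15 and 0.26 on the log2 scale. Il11ra1 overlaps Galt on its own strand and several genes on the other, among them Rpp25l, Dctn3, Arid3c and Ccl27a, and has a near copy, Il11ra2, which was listed at 0 in all 36 libraries, so its counts depend on how reads were assigned.

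Levels of different genes can be set side by side only per transcript length, as CPM per kilobase. Each length was that of the gene's longest annotated transcript, and a shorter one would raise the gene's value. The order of genes with close values, such as Osmr and Il6 in media, can depend on that choice. In media at 6 h the receptor genes Il6st (56.4 ± 7.13, mean ± SD, n = 6) and Osmr (23.4 ± 3.56) stood above the ligands Il6 (13.2 ± 6.13), Lif (8.33 ± 3.68) and Il11 (3.15 ± 1.38). In injured BALF at 6 h Il6 and Lif stood above both, with Il6 at 264 ± 58.8 and Lif at 134 ± 32.4 against 48.8 ± 5.07 for Il6st and 56.1 ± 8.46 for Osmr, while Il11 stayed below them at 18.0 ± 6.04. Il11 approached Il6st in uninjured BALF at 6 h (41.7 ± 19.6 against 45.2 ± 4.97), within the spread of its libraries. Il6ra and Lifr stayed lowest of the receptor genes among the members, at 0.823 ± 0.0879 to 1.49 ± 0.190 and 0.594 ± 0.205 to 1.34 ± 0.680 over the 6 groups. Il11ra1 ran from 12.7 ± 1.54 to 24.5 ± 8.60.

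**Figure D4:**
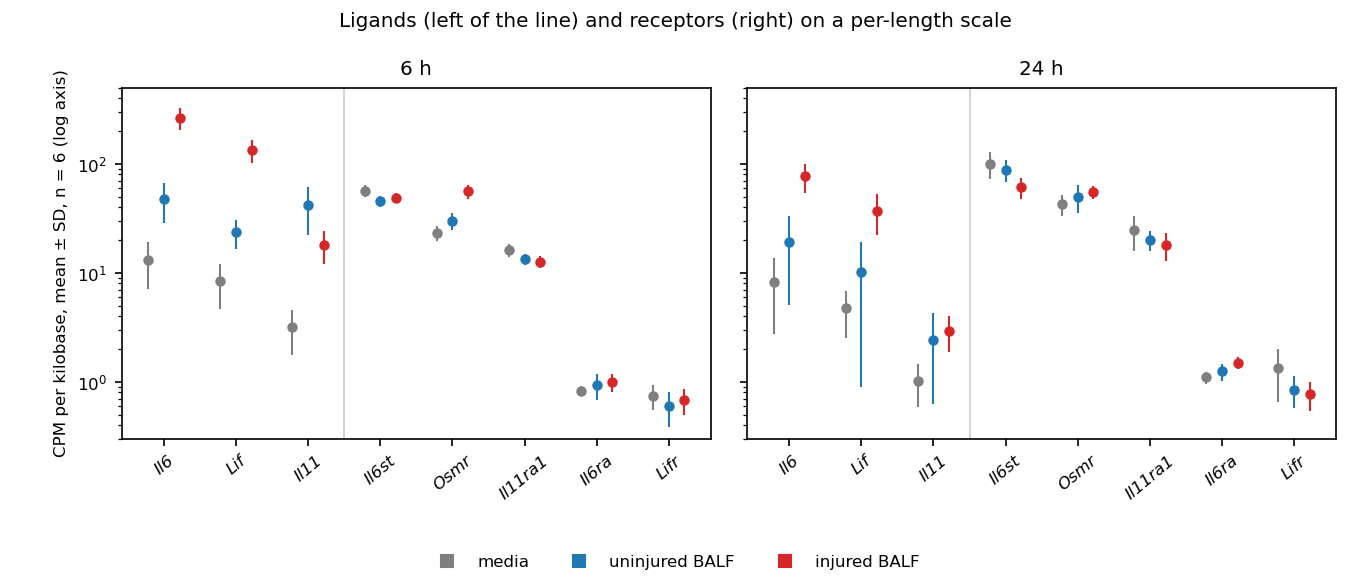
Mean ± SD (n = 6) of CPM per kilobase of the longest transcript, on a log axis, for ligands (left of the line) and receptors (right) at 6 and 24 h, coloured by treatment. Ligands spread over a range of 1.02 to 264 with treatment and time, while the Il6ra and Lifr means stay between 0.594 and 1.49.

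Socs3, a gene that STAT3 turns on and whose product inhibits gp130, rose against media with lavage fluid of either kind at 6 h. STAT3 activity itself was not measured. It was at 8.53, 11.5 and 15.5 CPM (lowest, median, highest) in media, 15.6, 20.9 and 32.02 in uninjured BALF and 20.5, 27.3 and 34.2 in injured BALF. Uninjured BALF and media did not overlap, a rise of 0.92 ± 0.24 (edgeR adjusted p = 0.0067) that did not pass with libraries 1 and 2 summed (0.057) or without number 1 (0.054) or 2 (0.13). Injured exceeded uninjured BALF by 0.34 ± 0.23, which did not pass (edgeR adjusted p = 0.60), and the ranges overlapped. At 24 h Socs3 lay at 22.8 to 65.8 CPM in uninjured and 34.4 to 46.5 in injured BALF (0.09 ± 0.23, edgeR adjusted p = 0.90). Stat3 transcripts, which do not measure the protein's phosphorylation, differed by -0.05 ± 0.07 at 6 h and -0.18 ± 0.07 at 24 h between injured and uninjured BALF (edgeR adjusted p = 0.88 and 0.20), at 172 to 239 CPM and 250 to 287 CPM in injured BALF. Stat3 overlaps Stat5a on the other strand.

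Injured BALF against media shares libraries with the comparisons above, so its values are set beside theirs. At 6 h 5 of 10 members rose and 0 fell, against 25.2% of all genes (13.8% up, 11.4% down). The same 5 stood above all media libraries, as did 9.42% of all genes, with 5.87% below. The rises were 4.31 ± 0.46 for Il6, 4.01 ± 0.45 for Lif, 2.55 ± 0.39 for Il11, 1.27 ± 0.15 for Osmr and 1.26 ± 0.24 for Socs3 (edgeR adjusted p = 8.7e-08, 1.9e-07, 1.8e-05, 3.6e-07 and 2.2e-04). All 5 calls held under every alternative tried. At 24 h 5 rose and 2 fell, against 23.6% of all genes (11.5% up, 12.1% down), and Il6, Lif, Il6ra and Socs3 stood above all media libraries, as did 4.48% of all genes, with 4.08% below. Il6 and Lif rose by 3.29 ± 0.44 and 3.00 ± 0.43, and both held under all 27 alternatives. Il11 rose by 1.56 ± 0.42 and Socs3 by 0.80 ± 0.23 (edgeR adjusted p = 0.0080 and 0.013), and neither passed with the closest libraries summed (0.087 and 0.080), nor did Socs3 with numbers 1 and 2 summed (0.092).

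The receptor genes also differed between injured BALF and media at 24 h. Il6st fell by 0.70 ± 0.14 on the log2 scale (edgeR adjusted p = 7.5e-04), from 657, 749 and 1282 CPM (lowest, median, highest) in media to 397, 530.5 and 715, and its adjusted p was 0.052 with the closest libraries summed. Lifr fell by 0.74 ± 0.26 and Il6ra rose by 0.44 ± 0.15 (edgeR adjusted p = 0.039 and 0.033). Lifr did not pass without any 1 of 8 libraries, which were female injured BALF replicates 1 and 2, male injured BALF replicates 2 and 3, female media replicates 2 and 3 and male media replicates 1 and 2 (at most 0.15). Il6ra did not pass without any 1 of 6, which were female injured BALF replicate 3, male injured BALF replicate 2, female media replicates 1 and 2 and male media replicates 2 and 3 (at most 0.076). Neither passed without the 4 libraries of unlike description number (0.068 and 0.12), of which 2 are media libraries of that time, or with numbers 1 and 2 summed (0.11 and 0.15).

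From 6 to 24 h every ligand call was a fall and every receptor call a rise. In media, 4 of 10 members rose and 1 fell, against 6.82% of all genes changed (3.50% up, 3.33% down). In uninjured BALF 6 rose and 3 fell, against 30.6% (15.1% up, 15.5% down), and in injured BALF 3 rose and 3 fell, against 26.9% (12.7% up, 14.2% down). The times did not overlap for 3 members upward and 1 downward in media (1.31% and 1.43% of all genes), for 3 and 1 in uninjured BALF (6.12% and 8.72%), and for 3 and 3 in injured BALF (6.77% and 8.87%). Il11 fell in all 3 treatments, by 1.63 ± 0.42, 4.13 ± 0.42 and 2.62 ± 0.39 on the log2 scale in media, uninjured BALF and injured BALF (edgeR adjusted p = 0.020, 7.5e-08 and 1.6e-05). Il6 fell by 1.37 ± 0.41 in uninjured and 1.78 ± 0.41 in injured BALF, and Lif by 1.28 ± 0.40 and 1.86 ± 0.41 (edgeR adjusted p = 0.012, 0.0019, 0.018 and 0.0012). In media their differences, -0.76 ± 0.41 and -0.84 ± 0.41, did not pass (edgeR adjusted p = 0.26 and 0.21).

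Stat3 was higher at 24 h in every treatment, without overlap: 276 to 314 against 188 to 247 CPM in media, 279 to 320 against 194 to 236 in uninjured BALF and 250 to 287 against 172 to 239 in injured BALF. The rises were 0.40 ± 0.07, 0.46 ± 0.07 and 0.33 ± 0.07 (edgeR adjusted p = 0.0022, 3.3e-05 and 0.0015). Il6st and Osmr rose with time in media (0.81 ± 0.14 and 0.86 ± 0.15) and uninjured BALF (0.97 ± 0.14 and 0.72 ± 0.15; edgeR adjusted p at most 0.0019), and in injured BALF the differences were 0.32 ± 0.14 and -0.02 ± 0.15 (edgeR adjusted p = 0.10 and 0.93). Il6ra rose in uninjured and injured BALF by 0.43 ± 0.15 and 0.59 ± 0.15, Il11ra1 by 0.59 ± 0.19 and 0.51 ± 0.19, and Socs3 in media and uninjured BALF by 1.05 ± 0.24 and 0.83 ± 0.23 (edgeR adjusted p at most 0.049). Lifr passed in none (0.78 ± 0.26 in media, edgeR adjusted p = 0.065).

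Several of these time calls rested on single libraries. The 9 calls in uninjured BALF became 5 without female uninjured BALF 24 h replicate 1. Il11 in media did not pass without replicate 3 of either sex at 24 h, or without female replicate 1 or male replicate 2 at 6 h (at most 0.069), and Il6 in uninjured BALF did not without male 6 h replicate 2 (0.051). In uninjured BALF, Lif did not pass without any 1 of the female 24 h replicates 1 and 3, the male 24 h replicates 1 and 3 and male 6 h replicate 2 (at most 0.058), and Socs3 did not without female 24 h replicate 1 or male 24 h replicate 3 (at most 0.057). Il6ra there did not without any 1 of female 24 h replicate 1, male 24 h replicate 1, female 6 h replicates 1 and 2 and male 6 h replicates 2 and 3 (at most 0.12), nor did Il11ra1 without female 24 h replicate 1, female 6 h replicate 1 or male 24 h replicate 3 (at most 0.11). Il11ra1 in injured BALF passed only without female 24 h replicate 1, female 24 h replicate 2 or female 6 h replicate 3 among the 12 libraries left out singly. All 5 calls in media ended with numbers 1 and 2 summed, as did Il6, Il6ra and Il11ra1 in uninjured BALF (0.066, 0.21 and 0.063) and Il11ra1 in injured BALF (0.066).

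The members fell into several orders of the 6 groups. Il6 and Lif shared one order: injured BALF at 6 h, injured BALF at 24 h, uninjured BALF at 6 h, uninjured BALF at 24 h, media at 6 h and media at 24 h, from 618 ± 138 down to 19.3 ± 12.9 CPM for Il6 and from 541 ± 131 down to 19.0 ± 8.73 for Lif (mean ± SD, n = 6). Only the top group stood clear of its neighbour, the other neighbours overlapping. Il11 was ordered uninjured BALF at 6 h (81.3 ± 38.3), injured BALF at 6 h (35.1 ± 11.8), then media at 6 h (6.15 ± 2.69) and the 24 h groups (5.75 ± 2.06, 4.74 ± 3.51 and 1.98 ± 0.839 in injured BALF, uninjured BALF and media), with a gap between the second and the third only. Il6st, Lifr and Il11ra1 were highest in media at 24 h (869 ± 241, 12.9 ± 6.57 and 49.2 ± 17.3), while Osmr was highest in injured BALF at 6 h (308 ± 46.5) and Il6ra in injured BALF at 24 h (12.9 ± 1.64), and all neighbours overlapped for these 5 receptor genes.

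Of 12 other IL-6 family ligand and receptor genes, 5 had enough counts to test. Osm, the gene of oncostatin M, the ligand of the Osmr product, was read at no more than 0.176 CPM in any library and at 0 in 21, and Il27, Ebi3, Cntf and Il31ra did not exceed 0.271, with Il31 at 0 in all 36 (a count of 0 allows up to 3 counts in a library). Clcf1, another cytokine of the family, rose in uninjured BALF at 6 h, as Il11 did. It lay at 28.9, 33.4 and 37.2 CPM (lowest, median, highest) in media, 63.4, 80.1 and 94.9 in uninjured BALF and 49.2, 66.0 and 96.4 in injured BALF at 6 h. Uninjured BALF exceeded media by 1.25 ± 0.16 (edgeR adjusted p = 2.2e-06, held under all 27 alternatives), and injured differed from uninjured BALF by -0.16 ± 0.15 (edgeR adjusted p = 0.76). At 24 h the effect of uninjured BALF on Clcf1 was smaller by 1.09 ± 0.22 in log2 units than at 6 h (interaction term, edgeR adjusted p = 0.0072, and 0.11 with numbers 1 and 2 summed). Clcf1 was the 1 of 5 that passed in uninjured BALF against media at 6 h, where 18.4% of all genes did. In injured against uninjured BALF at 6 h, the same at 24 h and uninjured BALF against media at 24 h, 0 of the 5 passed by edgeR and by DESeq2, with 0, 1 and 1 at an unadjusted p under 0.05. Of all genes 3.40%, 4.43% and 0.868% passed there by edgeR.

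Genes that carry, shed or damp the signal were followed in a list of 15, all tested. In injured against uninjured BALF at 6 h 3 rose and 0 fell, where 1.96% of all genes rose and 1.45% fell, with a median log2 fold change of 0.17 over the list and 0.00 over all genes. Stat5a, a STAT relative, rose by 0.87 ± 0.14, the kinase gene Jak2 by 0.53 ± 0.10 and its relative Tyk2 by 0.32 ± 0.07 (edgeR adjusted p = 2.5e-04, 0.0015 and 0.0081). Jak2 was at 53.5 to 84.8 CPM in uninjured and 89.4 to 109 in injured BALF. None of the 3 passed with libraries 1 and 2 summed (0.065, 0.15 and 0.31). At 24 h Adam17, the protease known to shed the IL-6 receptor, rose by 0.30 ± 0.06 and the phosphatase gene Ptpn2 by 0.32 ± 0.09 (edgeR adjusted p = 0.0017 and 0.032). Ptpn2 did not pass without any 1 of female injured BALF replicates 1 and 3, male injured BALF replicate 2, female uninjured BALF replicate 3 and male uninjured BALF replicates 1 and 3 (at most 0.14), nor with numbers 1 and 2 summed (0.12). At 24 h 2.39% of all genes rose. In uninjured BALF against media, Pias3, an inhibitor of STAT3, fell by 0.25 ± 0.07 at 6 h (edgeR adjusted p = 0.0086), with 2 called when female uninjured BALF replicate 1 or male media replicate 3 was left out. Pias3 was the 1 of 15 called at 6 h as reported, where 18.4% of all genes passed. None of 15 passed at 24 h (edgeR, 3 at an unadjusted p under 0.05, and 0 by DESeq2), where 0.868% of all genes did.

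A list of 17 genes known to respond to STAT3, which other factors also control, rose in part. In injured against uninjured BALF 5 rose and 0 fell at 6 h and 6 rose and 0 fell at 24 h, where 1.96% and 2.39% of all genes rose, with medians of 0.31 and 0.49 on the log2 scale against 0.00 over all genes. Saa3, an acute phase gene, lay at 0.550 to 8.48 CPM in uninjured and 18.9 to 60.4 in injured BALF at 6 h, and at 1.36 to 46.5 and 116 to 430.0 at 24 h. Its rise was 2.64 ± 0.53 and 5.08 ± 0.57 (edgeR adjusted p = 0.0027 and 3.8e-06), the first of which did not pass with numbers 1 and 2 summed (0.092). Cebpd, a transcription factor of the acute phase response, rose by 1.71 ± 0.25 at 6 h, Lcn2, which binds bacterial iron carriers, by 4.65 ± 0.70 at 24 h, and Hif1a, the oxygen-responsive factor, by 0.57 ± 0.11 and 0.53 ± 0.11 (edgeR adjusted p = 6.4e-05, 2.2e-04, 0.0016 and 0.0034). With libraries 1 and 2 summed the counts were 1 (Cebpd) and 2 (Lcn2 and Saa3).

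Other genes of that list led in uninjured BALF against media. At 6 h 6 of 17 rose and 0 fell, where 10.5% of all genes rose and 7.81% fell, among them Cebpb, a partner of IL-6 signalling, by 1.18 ± 0.21, Timp1, a protease inhibitor, by 0.92 ± 0.18, and Bcl6, a repressor, by 0.47 ± 0.11 (edgeR adjusted p = 2.3e-04, 5.1e-04 and 0.0037). The list's median was 0.47, against -0.01 over all genes. With numbers 1 and 2 summed 5 were called, and 3 with the closest libraries summed. At 24 h Il4ra, an interleukin-4 receptor chain, alone rose (0.61 ± 0.15, edgeR adjusted p = 0.037) and 0 fell, where 0.516% of all genes rose and 0.352% fell. The count was 0 without female uninjured BALF replicate 1, male uninjured BALF replicate 1 or 3 or male media replicate 2 or 3, and 2 without female uninjured BALF replicate 3. Il4ra also did not pass without female media replicate 1 (at most 0.14 over these libraries) or with numbers 1 and 2 summed (0.47).

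No member passed between male and female libraries (0 of 10 called by edgeR and by DESeq2, and 0 at an unadjusted p under 0.05, against 5.26% of all genes, 3.00% up and 2.26% down in males), with log2 differences of -0.18 to 0.18. The effect of injured against uninjured BALF differed between the sexes for none either (0 of 10 by edgeR, by DESeq2 and at an unadjusted p under 0.05, against 0% of all genes), and was 0.96 ± 0.57 larger in male libraries for Il6.

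Over the 36 libraries, which share treatments and times, the log2 levels of Il6 and Lif had a Pearson r of 0.97, and those of Il6 and Il11 of 0.64. A search for like genes left out the members, the lists of other family, signalling and STAT3 response genes, and genes under 2 average log2 CPM. Among the rest, those most like Il6 were Ch25h, a cholesterol hydroxylase (r = 0.96), the chemokine gene Cxcl3 (0.95) and Zc3h12a, an endoribonuclease of inflammatory mRNAs (0.95). Those most like Lif were Tnfaip3, an NF-kB inhibitor, Ch25h and the chemokine gene Cxcl2 (0.95 each). Il11 was closest to another set: Utp4, of ribosome assembly, Eaf1, an elongation factor partner, and Txnrd1, thioredoxin reductase (0.95 each). For Socs3 the nearest were D230025D16Rik, Tgfbr3 and Ptgfr (0.85 each), for Osmr Tgfbr3, Irak3 and Serpina3g (0.89, 0.86 and 0.85), and for Il6ra Tgfbr3, Zfp608 and Fam117a (0.82, 0.81 and 0.81). By Spearman's measure Tgfbr3, a transforming growth factor β co-receptor, was first for these 3 genes, and Nipal1 was first for Il11.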

How the data were processed

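The kit (TruSeq) keeps strand, per the labels' protocols. The authors deposited whole-number counts per Ensembl gene for 36 libraries. STAR 2.5.2b, RSEM 1.2.31, DESeq2 and GRCm38 are named in the submitters' processing notes without their roles, so the counts may be rounded RSEM estimates, which share reads among similar genes. Symbols and positions came from GENCODE M21 (48349 of 48795 identifiers, 99.1%). The 10 members, the gene lists and the rule for naming genes (all members, and of each list at most the 3 called genes with the lowest p per comparison) were chosen with earlier results of these data known.

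Counts were tested with edgeR 4.0.16 (R 4.3.3): TMM scaling, its expression filter, a robust quasi-likelihood fit of 12 groups (treatment by sex by time; 24 residual degrees of freedom), and Benjamini-Hochberg adjustment over 15901 genes at 0.05. Effects average both sexes with equal weight, and the standard error is the log2 fold change over the root of its F statistic. A simulation (15901 genes) drew all 36 libraries independently at the mean proportions of uninjured BALF at 6 h. Genes were then changed in injured BALF at 6 h, none of them of very low level. Of 50 genes each changed 1.5-, 2-, 4- and 8-fold, 30, 42, 50 and 50 were recovered, with 7 false calls. The closeness of libraries 1 and 2 was not simulated, so the simulation cannot tell the errors under it. Alternatives were DESeq2 1.42.0, 2 scalings, 2 filters, a replicate block, only the groups compared, sex ignored, libraries left out and libraries 1 and 2 summed. Summing the closest pair of each group and a spread that is not robust were added after the data were examined. In injured against uninjured BALF at 6 h and in 24 against 6 h in injured BALF, same-numbered libraries deviated together, with r over 0.1, in all 6 pairs (r 0.33 to 0.65 and 0.23 to 0.59). The labels do not say what a number marks. Promoter windows came from RefSeq. A count of 0 allows up to 3 counts (95% limit), which covers counting error only.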

Additional observations from a re-analysis of the deposited data

Results flagged for a closer look

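In 6 of 60 groups of 6 libraries tested over the members, 1 library stood far from the other 5 (Dixon's test at its 95% critical value), which chance gives in about 1 of 20 groups. All 6 are of uninjured BALF, and none is among the 4 libraries of unlike description number. At 24 h, female replicate 2 held 106 CPM of Il6 (the other 5 held 16.7 to 49.9) and 112 CPM of Lif (17.8 to 51.3). Male replicate 2 held 11.5 CPM of Il11 (1.80 to 4.76), and female replicate 1 held 422 CPM of Osmr (213 to 280.2). At 6 h, male replicate 3 was low in Osmr, at 108 CPM (162 to 194), and male replicate 1 was high in Socs3, at 32.02 CPM (15.6 to 21.7).

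The effect of uninjured BALF at 24 h minus that at 6 h was -2.50 for Il11 and -1.09 for Clcf1 on the log2 scale and passed as an interaction term, as it did for 1.98% of all genes and, among the listed genes, for Cebpb (-1.11). With libraries 1 and 2 summed, Il11 and Clcf1 did not pass (edgeR adjusted p = 0.19 and 0.11).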

How the results depend on the processing

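Over 15 alternatives and the 36 libraries left out singly, no sign changed where the reported or the alternative value passed: 4659 values kept their side of the threshold, 226 lost a call and 46 gained one. Differences that did not pass could change sign, such as Il11 in injured against uninjured BALF at 24 h (0.32, range -0.04 to 0.80). Scaling moved the median of all genes by at most 0.08 (log2). Counts of members called that moved by over 1.5 times are given here.

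With libraries 1 and 2 summed, injured against uninjured BALF gave 1 member at 6 h and 1 at 24 h (3 each as reported), injured BALF against media at 24 h 4 (reported 7), 24 against 6 h in media 0 (reported 5), and the change of the uninjured BALF effect between times 0 (reported 1). Calls over all genes fell as well in these comparisons, in the same order from 541 to 105, 704 to 170, 3759 to 2120, 1085 to 9 and 315 to 3. With the closest libraries summed the members called were 0 for injured against uninjured BALF at 24 h, 2 for injured BALF against media at 24 h, 0 for time in media and 0 for the change of the uninjured BALF effect, and uninjured BALF against media at 6 h gave 2 (reported 4). Fitting only the groups compared left 1 in injured against uninjured BALF at 24 h. Leaving out the 4 libraries of unlike description number left 4 in injured BALF against media at 24 h and 0 for the change of the uninjured BALF effect, which was 0 without a filter too. Without those 4 libraries, calls over all genes fell from 3759 to 2937 and from 315 to 133.

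Leaving out single libraries or whole replicate numbers gave 1 to 4 and 0 to 3 members for injured against uninjured BALF at 6 and 24 h, 1 to 5 and 0 to 1 for uninjured BALF against media, 5 to 6 and 2 to 8 for injured BALF against media, 0 to 7, 5 to 10 and 2 to 7 for time in media, uninjured and injured BALF, and 0 to 2 and 0 to 1 for the changes of the injured and uninjured BALF effects. The cause was not tested. Where libraries were summed or left out, having fewer libraries cannot be told apart from which libraries they were.

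With the replicate number as a block, uninjured BALF against media at 24 h gave 1 member (reported 0) and time in media 9 (reported 5). Over all genes the block gave 268 (reported 138) and 1765 (reported 1085) in these comparisons. Same-numbered libraries there had r of -0.49 to 0.55 and 0.06 to 0.64, with 3 and 5 of the 6 pairs over 0.1. The median r of the second, 0.36, was close to the 0.35 of time in injured BALF. Whether the numbers pair the libraries is not known. In both comparisons where all 6 pairs were over 0.1, the block kept the counts, at 3 and 6.

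The lowest count of a member in any library was 29 for Il11 and 87 for Lifr, and no alternative varied the depth. Osm and the other family genes near 0 could not be tested at this depth.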
